A study of Rattus norvegicus with 10 samples.

Results

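The astrocyte genes described here are 30 genes that mark astrocytes in rodent cortex, listed by name. The list was drawn up with earlier results of these data known. All 30 were among the 22081 genes in the deposited tables, and all 30 were among the 14135 genes that passed the filter on low counts. Astrocytes are the glia that surround synapses and wrap blood vessels. They clear glutamate and potassium after neurons fire, turn glutamate into glutamine, move water at their endfeet, store glycogen and are coupled to each other by gap junctions. In rodent models of cocaine self-administration they are known for glutamate uptake and for the exchange of cystine for glutamate, mostly from work on the nucleus accumbens.

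RNA was sequenced from the medial prefrontal cortex (mPFC: infralimbic, prelimbic and anterior cingulate cortex) of 5 high cue (HC) rats and 5 low cue (LC) rats, with 1 library per rat. High and low cue are the phenotypes of outbred male Sprague-Dawley rats that pressed a lever more or less for cues that had been paired with cocaine. Rats of both phenotypes worked for intravenous cocaine (0.75 mg/kg an infusion), spent 10 days in abstinence and had the mPFC taken on day 27. Some rats of each phenotype also had a second cue test before the tissue was taken, whose part was not tested. No cocaine-naive rats were compared here, so the phenotypes are set against each other only. The rats were aged 11 weeks when operant training began. Each rat set its own cocaine intake, and the paper reports a higher total intake in HC rats than in LC rats. Intake and phenotype therefore cannot be told apart here, and the part of intake in any difference was not tested.

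The deposited exon reads came to 11296517 to 26664008 per HC rat (median 17223866) and to 12151550 to 23342946 per LC rat (median 14570922). LC rat 2 stood apart from the other libraries: 28.4% of its exon reads came from mitochondrially encoded genes, against 7.65% to 12.0% in the other 9 rats. Its scaling factor by the trimmed mean of M-values (TMM) was 0.772, against 1.00 to 1.05 in the others. Levels between rats are therefore compared in CPM, the usual count scale in which each exon read count is divided by its library total, here with that total adjusted by TMM, and results that rest on this rat are given with and without it. Its neuronal markers went both ways: of 12, 5 were higher and 4 lower in LC rat 2 than in any other rat. The synaptic gene Snap25 was at 5901 CPM in it, against 1665 to 2140 CPM in the other LC rats, and the glutamate vesicle transporter gene Slc17a7 was at 1095 CPM, against 1759 to 2020 CPM. In a bulk sample, fewer astrocytes and less astrocyte RNA per cell cannot be told apart.

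Astrocyte markers were present throughout: every one of the 30 genes had reads in every rat. In bulk tissue, any reads that other cell types add to these genes cannot be separated out. Levels between genes were compared in TPM, in which reads are divided by exon length. Cst3, the secreted protease inhibitor cystatin C, was highest at 3043 TPM over the 10 rats. S100b, a calcium-binding protein, followed at 1157 TPM, and Glul, the glutamine synthetase, at 1062 TPM. Then came Clu, the secreted chaperone clusterin, at 943 TPM, the glycolytic enzyme gene Aldoc at 738 TPM and Ndrg2 at 727 TPM. The glial glutamate transporter genes stood at 652 TPM (Slc1a2) and 344 TPM (Slc1a3). The 10 highest genes held 87.0% of the summed TPM of all 30. Near the bottom was Aldh1l1, a folate enzyme widely used as an astrocyte marker, at 11.9 TPM. Last was the zinc transporter gene Slc39a12 at 0.641 TPM, with only 5 to 26 exon reads per rat.

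**Figure D1:**
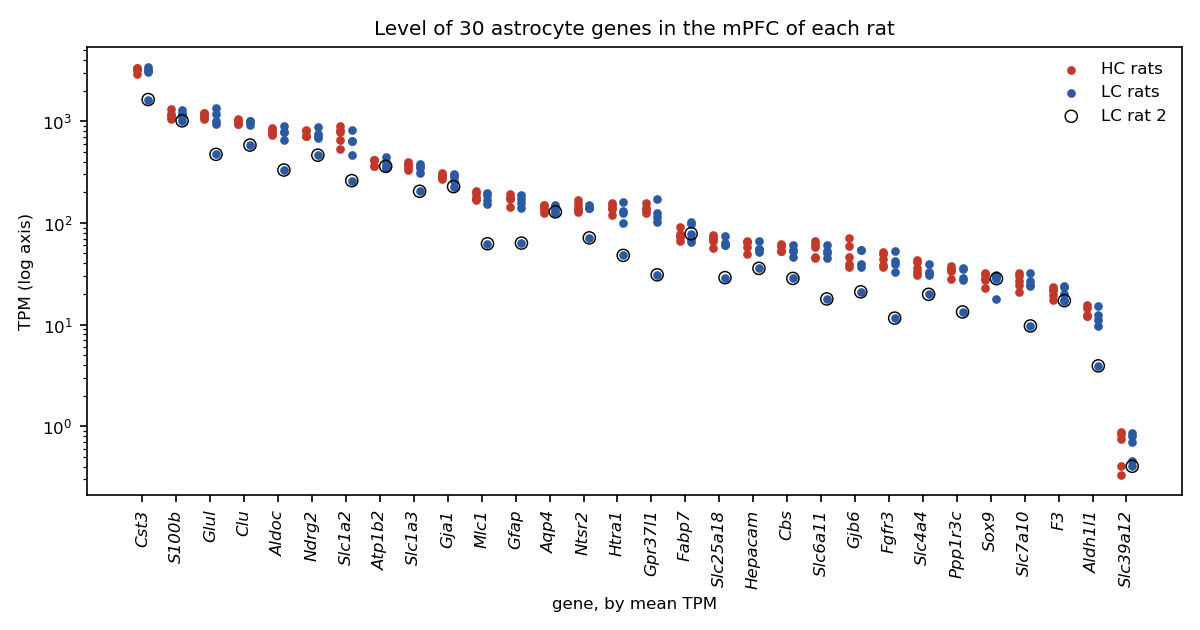
Level of each astrocyte gene in TPM (log axis) in each rat, with HC rats in red on the left and LC rats in blue on the right of each gene, ordered by mean TPM. Ringed points are LC rat 2, which was the lowest of the 10 rats for 25 of the 30 genes on this scale.

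Some of these levels are limited by the gene models. Only 55.8% of the Cst3 reads were unique to it, so its level is uncertain. For the neutral amino acid transporter gene Slc7a10 the unique share was 92.7%, and for the other 28 genes it was 99.8% or more. The gene model of Slc1a2 held only 882 exon bases, and 20.1% of the reads within the gene fell in introns. Of the reads within Slc39a12, 71.5% fell in introns. Added up in TPM, the 30 genes came to 10739 to 12119 in HC rats, against 6263 in LC rat 2 and 10351 to 12346 in the other LC rats. As a share of exon reads they took 0.868% to 1.00% in HC rats, against 0.704% in LC rat 2 and 0.915% to 1.05% in the other LC rats. With mitochondrial reads set aside, that share was 0.940% to 1.10% in HC rats, against 0.983% in LC rat 2 and 1.02% to 1.16% in the other LC rats. LC rat 2 then lay within the range of the HC rats.

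Whether astrocyte genes differed between HC and LC rats was tested with the quasi-likelihood test of edgeR across all 14135 genes. None of the 30 had an unadjusted p under 0.05, where 1.74% of all genes tested did (0.722% higher and 1.02% lower in HC rats). None met the criterion of the study, which asks for an unadjusted p under 0.05 and for an absolute log2 fold change no smaller than 0.58, where 0.58% of all genes did. None passed an adjusted p of 0.05, where 0% of all genes did, and the lowest adjusted p among the 30 was 0.885. None had HC and LC rats that did not overlap, where 0.439% of all genes had. The DESeq2 Wald test also gave 0 of the 30 at an unadjusted p under 0.05. The count was also 0 when LC rat 2, or LC rats 2 and 4, were left out. Leaving out HC rat 16 or LC rat 12 gave 1 (Fabp7), and leaving out LC rat 13 gave 2 (Fabp7 and Slc1a2).

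The sizes of the differences were small. Log2 fold changes of HC over LC ran from -0.34 (Fabp7) to 0.23 (Gpr37l1), with a median of 0.03, beside a median of 0.0047 over all genes tested. HC was higher for 17 of the 30, where 51.1% of all genes were. The 95% interval of the fold change lay within 1.5-fold in either direction for 22 of the 30 and within 2-fold for all 30. For the other 8 genes the interval reached past 1.5-fold in at least 1 direction, so a difference of that size is not settled for them by 5 rats per phenotype.

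**Figure D2:**
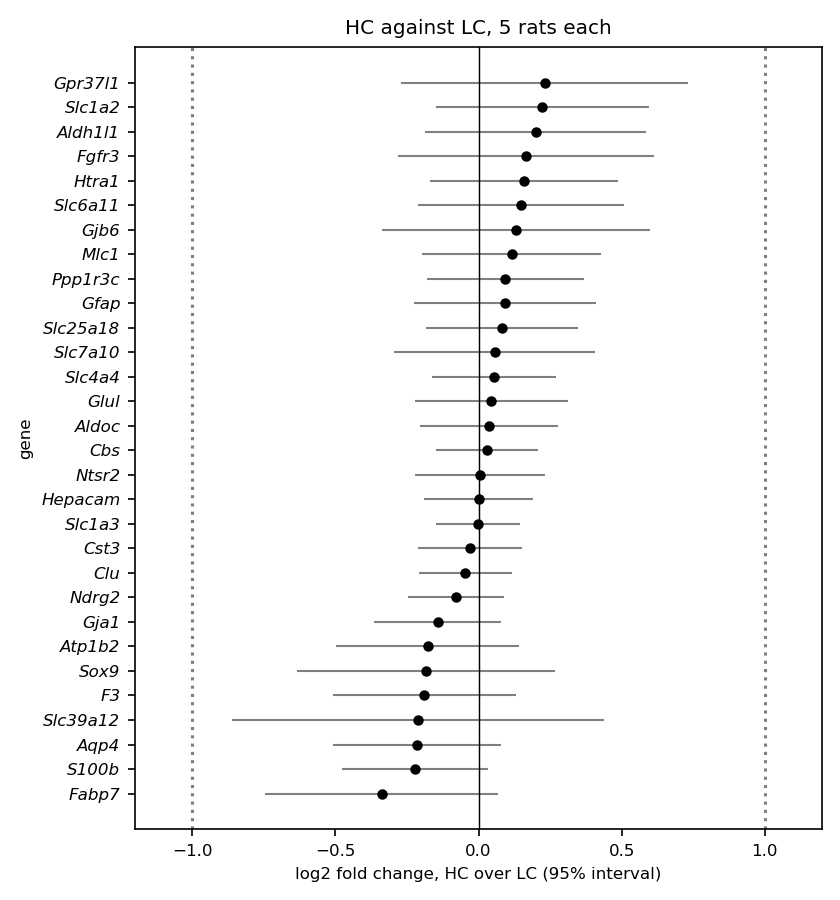
Log2 fold change of HC over LC (points, x axis) with its 95% interval (bars) for each astrocyte gene, from edgeR on 5 rats per phenotype. Every interval includes 0, and none reaches the dotted lines at a 2-fold difference, with the widest for Slc39a12.

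The genes of the astrocyte cytoskeleton, water channel and adhesion gave the following values. Gfap, the intermediate filament gene that is raised in reactive astrocytes, had 284, 288, 226, 289.6 and 339.9 CPM in HC rats 9, 10, 11, 15 and 16, against 185, 285, 248, 322 and 297 CPM in LC rats 2, 4, 12, 13 and 14. Its highest value was in an HC rat and its lowest in LC rat 2, and the other rats were interleaved. The log2 fold change of Gfap was 0.09 (SE 0.15, unadjusted p = 0.537), with an interval of 0.855-fold to 1.33-fold. Without LC rat 2 it was -0.02.

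Aqp4, the water channel of astrocyte endfeet, had 359, 313, 313, 367 and 369 CPM in HC rats 9, 10, 11, 15 and 16, against 556, 404, 329, 363 and 347 CPM in LC rats 2, 4, 12, 13 and 14. LC rats 2 and 4 were the highest, and the other 3 LC rats lay among the HC rats. Aqp4 had a log2 fold change of -0.22 (SE 0.13, unadjusted p = 0.136), and without LC rat 2 it was -0.07. Mlc1, a membrane protein gene of astrocyte endfeet, had 256, 227, 226, 274 and 240.1 CPM in HC rats 9, 10, 11, 15 and 16, against 146, 220.2, 239, 256 and 269 CPM in LC rats 2, 4, 12, 13 and 14. Here LC rat 2 was the lowest, the other rats were interleaved, and the log2 fold change of Mlc1 was 0.12 (SE 0.14, unadjusted p = 0.434), or -0.0071 without LC rat 2. Hepacam, the adhesion partner of Mlc1, averaged 34.5 ± 2.93 CPM in HC rats and 34.5 ± 2.97 CPM in LC rats (mean ± SD over 5 rats).

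Of the 7 genes that handle glutamate, GABA and amino acids, 6 had log2 fold changes above 0, where 51.1% of all genes had, and none passed the test. Without LC rat 2 it was 3 of the 7. Glul, which turns glutamate into glutamine, had 1317, 1289, 1169, 1369.8 and 1276 CPM in HC rats 9, 10, 11, 15 and 16, against 938, 1155, 1407, 1549.9 and 1173 CPM in LC rats 2, 4, 12, 13 and 14. The LC rats held both the highest and the lowest value. Between HC and LC rats the log2 fold change of Glul was 0.05 (SE 0.12, unadjusted p = 0.718), or -0.04 without LC rat 2.

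Slc1a2 encodes the main glutamate transporter of forebrain astrocytes (GLT-1 in rats). It had 323, 261, 300.2, 361 and 229 CPM in HC rats 9, 10, 11, 15 and 16, against 184, 204, 274, 338 and 262 CPM in LC rats 2, 4, 12, 13 and 14. LC rats 2 and 4 were the lowest, HC rat 15 and LC rat 13 the highest, and HC rat 16 lay below 3 LC rats. The log2 fold change of Slc1a2 was 0.22 (SE 0.17, unadjusted p = 0.214, exact permutation p = 0.254, two-sided), with an interval of 0.902-fold to 1.51-fold. Leaving out LC rat 2 gave 0.13. Leaving out LC rat 13 gave 0.35 with an unadjusted edgeR p of 0.0474, and this was the only 1 of 24 alternatives in which Slc1a2 passed. Leaving out LC rats 2 and 4 together gave 0.015 with an unadjusted edgeR p of 0.917. Slc1a3, the other glial glutamate transporter gene (GLAST), was the least variable of the 30 with a coefficient of variation of 5.25% over the rats. It averaged 662 ± 41.6 CPM in HC rats and 663 ± 31.6 CPM in LC rats (mean ± SD over 5 rats), with an interval of 0.902-fold to 1.11-fold. The remaining members of this group were Slc6a11 (a GABA transporter), Slc7a10, Slc25a18 (a mitochondrial glutamate carrier) and Cbs (the first enzyme from homocysteine to cysteine), with log2 fold changes of 0.15, 0.06, 0.08 and 0.03. Without LC rat 2 these were 0.03, -0.06, 0.0070 and -0.0019.

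**Figure D3:**
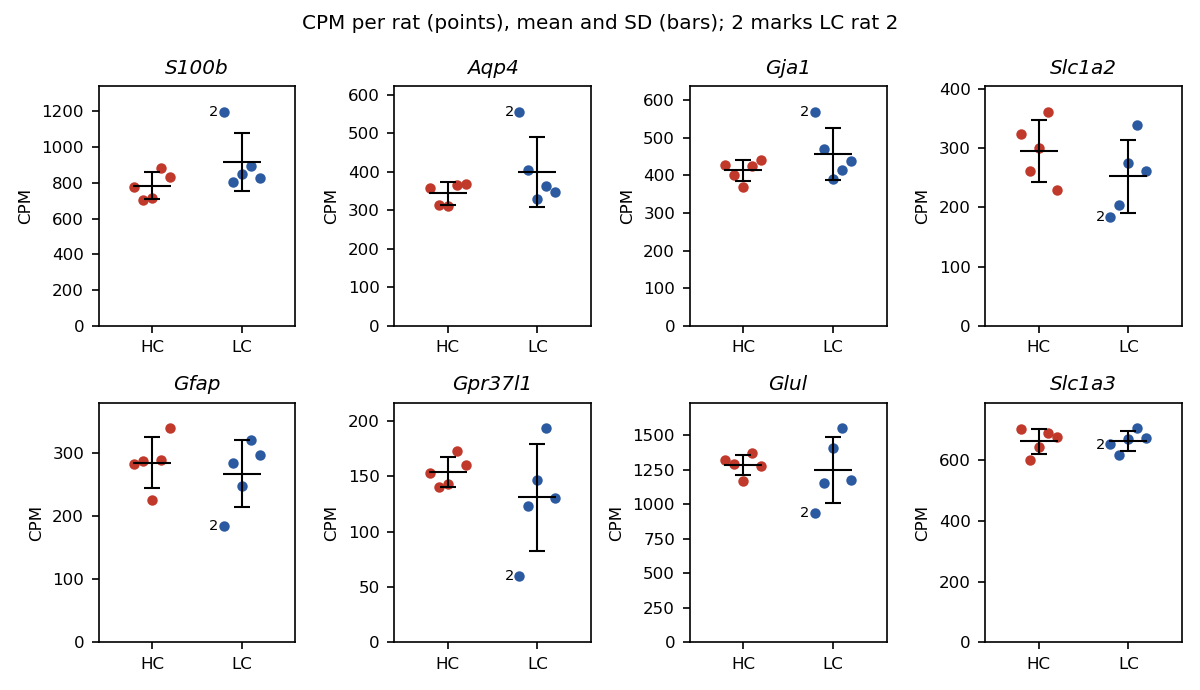
CPM of 8 astrocyte genes in each rat (points), with the mean and SD of 5 rats (bars), HC rats on the left and LC rats on the right, y axes from 0. LC rat 2, marked 2, is the highest rat for S100b, Aqp4 and Gja1 and the lowest for Slc1a2, Gfap, Gpr37l1 and Glul, and lies among the others for Slc1a3.

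The promoters of the genes closest to the threshold in each direction, S100b (with the lower mean in HC rats) and Slc1a2 (with the higher mean in HC rats), are shown with the letters TTGGC, the core bound by nuclear factor I, a family of factors known for its role in astrocyte formation. In the RefSeq windows of assembly GRCr8 (250 bases before to 50 bases after a gene start), 27 of the 30 genes were matched, with 35 windows. Sox9, F3 and Clu were not matched. The core on either strand was in 20 of these 35 windows (57.1%), against 45.8% of all 33469 windows. Windows are not separate genes: Slc1a3 and Hepacam each count more than once among the 20. The full nuclear factor I palindrome, which holds the core on both strands 5 bases apart, was in 0 of the 35 windows and in 0.0418% of all windows. The STAT letters TTCCNGGAA were in 1 of the 35 windows (2.86%), that of Ppp1r3c, against 1.27% of all windows. A match is a description of letters and not a bound site. The 250 bases before each start follow, 5′ to 3′ on the strand of the gene, with the core in capitals. S100b, which has 2 cores close to its start, comes first, and then the 2 annotated starts of Slc1a2, of which the first has 0 cores and the second has 1.
S100b, chr20:12381082-12381331, minus strand: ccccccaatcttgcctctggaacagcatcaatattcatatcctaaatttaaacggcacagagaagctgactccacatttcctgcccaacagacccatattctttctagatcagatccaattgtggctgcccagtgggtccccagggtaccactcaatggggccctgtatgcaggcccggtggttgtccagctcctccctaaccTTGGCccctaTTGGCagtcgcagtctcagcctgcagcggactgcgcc
Slc1a2, chr3:109459859-109460108, plus strand: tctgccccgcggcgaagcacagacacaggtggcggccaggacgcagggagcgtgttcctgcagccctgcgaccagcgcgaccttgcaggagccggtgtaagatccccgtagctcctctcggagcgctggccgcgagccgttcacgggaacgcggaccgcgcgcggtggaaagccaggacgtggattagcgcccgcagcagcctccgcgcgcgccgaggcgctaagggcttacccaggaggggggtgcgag
Slc1a2, chr3:109507697-109507946, plus strand: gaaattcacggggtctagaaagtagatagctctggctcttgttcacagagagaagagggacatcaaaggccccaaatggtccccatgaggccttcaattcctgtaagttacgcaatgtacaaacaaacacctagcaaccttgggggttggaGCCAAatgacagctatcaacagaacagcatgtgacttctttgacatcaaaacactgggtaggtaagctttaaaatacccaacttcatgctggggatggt

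Both connexin genes overlapped between the phenotypes. Gja1, the major gap junction gene of astrocytes, had 428, 402, 368, 425 and 442 CPM in HC rats 9, 10, 11, 15 and 16, against 569, 469, 390.5, 415 and 437 CPM in LC rats 2, 4, 12, 13 and 14. LC rats 2 and 4 were again the highest. Gja1 had a log2 fold change of -0.14 (SE 0.10, unadjusted p = 0.186) and -0.05 without LC rat 2. Gjb6, the second astrocyte connexin gene, varied more, with 47.4, 38.1, 30.8, 30.1 and 62.6 CPM in HC rats 9, 10, 11, 15 and 16, against 30.2, 48.7, 34.2, 45.2 and 31.4 CPM in LC rats 2, 4, 12, 13 and 14. Its 3 highest rats were HC rat 16, LC rat 4 and HC rat 9. These were also the 3 rats with the highest markers of meningeal fibroblasts, cells of the brain surface: the 8 markers summed to 854 CPM in HC rat 16 and 569 CPM in HC rat 9, against 695 CPM in LC rat 4, and to 134 to 278 CPM in the other rats. Their part in the level of Gjb6 was not tested.

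Among genes of ion and metal transport, Atp1b2, a subunit of the glial sodium and potassium pump, had 550.1, 499, 479, 572 and 609 CPM in HC rats 9, 10, 11, 15 and 16, against 866, 579.9, 507, 623 and 488 CPM in LC rats 2, 4, 12, 13 and 14. LC rat 2 alone lay above the HC range by more than 1 HC standard deviation of 53.3 CPM. Atp1b2 had a log2 fold change of -0.18 (SE 0.15, unadjusted p = 0.249) and -0.02 without LC rat 2. Slc4a4, the sodium bicarbonate cotransporter, had 0.05, and Slc39a12, at its few reads, had -0.21 (SE 0.30).

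The metabolic genes showed no shared direction. Aldoc had 624, 564, 569, 652 and 608 CPM in HC rats 9, 10, 11, 15 and 16, against 446, 543, 637, 695 and 620.4 CPM in LC rats 2, 4, 12, 13 and 14. LC rat 2 was the lowest and LC rat 13 the highest, with every HC rat between them, and the log2 fold change was 0.04 (SE 0.11, unadjusted p = 0.747). Without LC rat 2 Aldoc was at -0.05.

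Fabp7, a fatty acid binding protein of astrocytes and radial glia, had the largest log2 fold change of the 30 in size. It had 29.1, 27.6, 27.0, 25.3 and 37.0 CPM in HC rats 9, 10, 11, 15 and 16, against 52.1, 40.0, 26.4, 26.7 and 39.5 CPM in LC rats 2, 4, 12, 13 and 14. LC rats 2, 4 and 14 lay above every HC rat, while LC rats 12 and 13 lay below all but HC rat 15. The log2 fold change of Fabp7 was -0.34 (SE 0.19, unadjusted p = 0.0942, exact permutation p = 0.198, two-sided), with an interval of 0.597-fold to 1.05-fold. Leaving out HC rat 16, LC rat 12 or LC rat 13 gave Fabp7 -0.44, -0.45 and -0.44 with unadjusted p of 0.0436, 0.0299 and 0.0329. Leaving out LC rat 2 gave -0.19 with an unadjusted p of 0.227. Without LC rat 4 it was -0.31, and without LC rats 2 and 4 together -0.10, with unadjusted edgeR p of 0.162 and 0.542.

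Aldh1l1 had 19.2, 16.8, 15.8, 21.1 and 18.1 CPM in HC rats 9, 10, 11, 15 and 16, against 9.44, 14.5, 16.1, 21.1 and 17.6 CPM in LC rats 2, 4, 12, 13 and 14. LC rats 2 and 4 were the lowest. Between HC and LC rats the log2 fold change of Aldh1l1 was 0.20 (SE 0.18, unadjusted p = 0.279) and 0.07 without LC rat 2. Ppp1r3c, which targets a phosphatase to glycogen, had 0.09, or 0.0052 without LC rat 2, and Ndrg2 had -0.08, or -0.07.

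Of the genes for receptors and calcium binding, S100b had the smallest p of the 30. It had 779, 705, 716, 883 and 835 CPM in HC rats 9, 10, 11, 15 and 16, against 1197, 804, 849.6, 895 and 825 CPM in LC rats 2, 4, 12, 13 and 14. LC rat 2 was the highest and LC rat 13 the second highest, HC rats 10, 11 and 9 were the lowest, and HC rats 15 and 16 lay among the LC rats. The log2 fold change of S100b was -0.22 (SE 0.12, unadjusted p = 0.0823, exact permutation p = 0.103, two-sided), with an interval of 0.718-fold to 1.02-fold. Without LC rat 2 it was -0.11 with an unadjusted p of 0.165.

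Gpr37l1, a receptor gene of glia, had 153, 140.4, 143, 173 and 161 CPM in HC rats 9, 10, 11, 15 and 16, against 60.2, 123, 147, 194 and 131 CPM in LC rats 2, 4, 12, 13 and 14. It averaged 154 ± 13.3 CPM in HC rats and 131 ± 48.1 CPM in LC rats (mean ± SD over 5 rats), with LC rat 2 at the bottom and LC rat 13 at the top. Gpr37l1 had a log2 fold change of 0.23 (SE 0.23, unadjusted p = 0.333) and 0.05 without LC rat 2. Fgfr3 (a growth factor receptor), Ntsr2 (a neurotensin receptor) and F3 (tissue factor) had 0.17, 0.0044 and -0.19, and without LC rat 2 they had 0.0056, -0.04 and -0.09.

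Among the secreted proteins, Cst3 had 1118, 1157, 992, 1188 and 1261 CPM in HC rats 9, 10, 11, 15 and 16, against 1025, 1236, 1158, 1234 and 1177 CPM in LC rats 2, 4, 12, 13 and 14. HC rats held both the highest and the lowest value, and the log2 fold change was -0.03 (SE 0.08, unadjusted p = 0.731). Clu had -0.05 and Htra1, a secreted protease gene, had 0.16, or 0.05 without LC rat 2. Sox9, the transcription factor of the list, which acts in glial fate, had 42.1, 36.0, 42.7, 50.1 and 52.3 CPM in HC rats 9, 10, 11, 15 and 16, against 77.3, 50.2, 29.4, 47.4 and 49.5 CPM in LC rats 2, 4, 12, 13 and 14. LC rats held both ends, and the log2 fold change of Sox9 was -0.18 (SE 0.21, unadjusted p = 0.391) and 0.01 without LC rat 2.

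The astrocyte genes varied more from rat to rat than from phenotype to phenotype. HC rat 15 lay above the mean of the 10 rats for 24 of the 30 genes, HC rat 9 for 21 and HC rat 16 for 20, against 26 in LC rat 13. At the other end HC rat 11 did so for 7, HC rat 10 for 9 and LC rat 2 for 11. LC rats 12, 4 and 14 did so for 14, 15 and 17. High rats thus occurred in both phenotypes, and the lowest counts were in HC rats 11 and 10, followed by LC rat 2. The mean log2 CPM over the 30 genes, each centred on its own mean, was 0.08, -0.07, -0.14, 0.12 and 0.05 in HC rats 9, 10, 11, 15 and 16, against -0.17, -0.02, -0.04, 0.17 and 0.01 in LC rats 2, 4, 12, 13 and 14. It averaged 0.0090 ± 0.11 in HC rats and -0.0090 ± 0.12 in LC rats (SD, n = 5 each), so the phenotypes differed by 0.02, less than the spread within each. Over 27 further astrocyte genes the same score was also highest in HC rat 15 (0.12) and LC rat 13 (0.17), and it was lowest in HC rat 10 (-0.10) and LC rat 2 (-0.24).

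**Figure D4:**
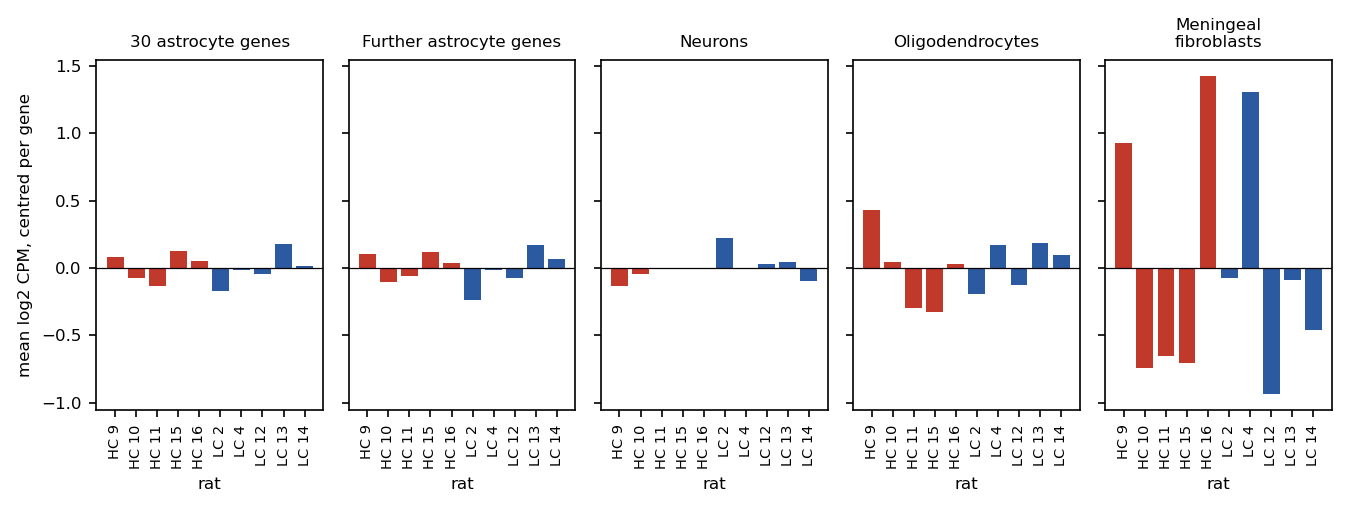
Mean log2 CPM per rat over the genes of each list, each gene centred on its mean over 10 rats (bars; HC rats red, LC rats blue). The 30 astrocyte genes stay between -0.17 and 0.17, with HC rat 15 and LC rat 13 highest, while meningeal fibroblast markers run from -0.94 to 1.43.

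LC rat 2 did not hold astrocyte genes uniformly high or low. It was the lowest of the 10 rats for 15 genes, the highest for 7 and between the others for 8. It was thus at an end for 73.3% of the 30, where it was at an end for 68.8% of all genes tested, so the astrocyte genes were close to the background in this respect. Relative to the mean of the other 9 rats it had 0.397 times the CPM of Gpr37l1, 0.463 times that of Fgfr3, 0.530 times that of Aldh1l1 and 0.568 times that of Slc6a11. On the other side it had 1.74 times the CPM of Sox9, 1.68 times that of Fabp7, 1.59 times that of Atp1b2 and 1.58 times that of Aqp4. The 7 genes highest in LC rat 2 were S100b, Aqp4, Gja1, Atp1b2, Sox9, F3 and Fabp7. Their median exon length was 3009 bases, against 2440 bases for the 15 lowest in it, and the ranges of length overlapped (833 to 5419 and 882 to 3661 bases). This library also had the lowest share of intron reads, 11.2% of reads within genes, against 12.4% to 15.9% in the others. The part of these features in the split was not tested.

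The coefficient of variation of the 30 genes had a median of 16.3% over the 10 rats and of 11.0% without LC rat 2, beside 15.4% and 9.70% over all genes tested. Over tested genes with a mean of at least 50 reads it was lower, at 13.9% and 8.59%. Within phenotypes the median was 10.1% in HC rats and 19.9% in LC rats, and LC rats varied more for 23 of the 30, where they did so for 78.3% of all genes tested. With LC rat 2 left out, the LC median was 10.4% and LC rats varied more for 18 of the 30, where they did so for 51.7% of all genes. Without LC rat 2, HC was higher for 12 of the 30, and the median log2 fold change was -0.01, beside 0.0018 over all genes tested. Of the 30, 23 came closer to 0 and 9 changed sign. The values then ran from -0.22 to 0.13, with 0.165 as the lowest unadjusted p. Without LC rats 2 and 4 together, HC was higher for 6 of the 30 with a median of -0.03, beside 0.0006 over all genes tested. How many of all genes were higher in HC rats, came closer to 0 or changed sign in these fits was not counted. LC rat 4 had the highest markers of striatal projection neurons, 764 CPM over 9 markers, against 322 to 431 CPM in the other 9 rats, and their part was not tested.

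**Figure D5:**
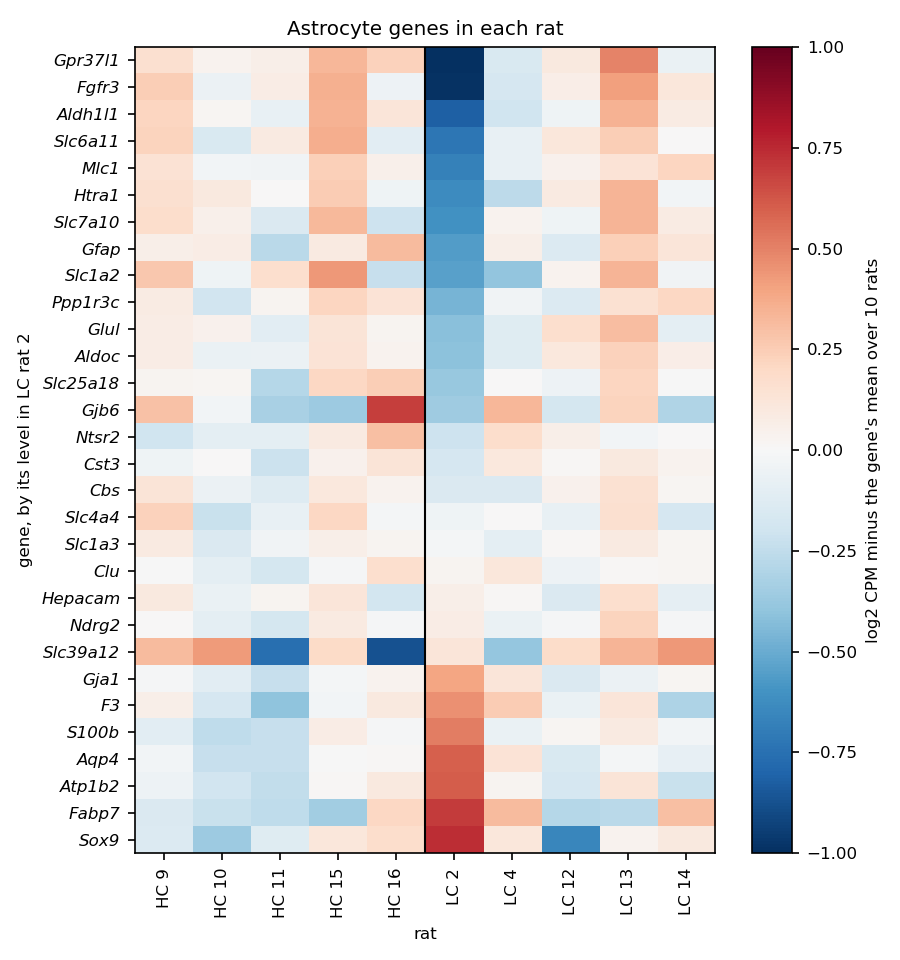
Log2 CPM of each astrocyte gene (rows, ordered by their level in LC rat 2) in each rat (columns, HC rats left of the line and LC rats right of it), as the difference from the mean of the gene over 10 rats; red is above and blue below that mean. LC rat 2 runs from low at the top to high at the bottom, and LC rat 13 and HC rat 15 are above the mean for 26 and 24 of the 30 genes.

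Other genes of astrocytes, from lists that share no name with the 30, were in the same position. Of 27 further astrocyte genes tested (such as Apoe, Agt and Kcnj10), 0 had an unadjusted p under 0.05 in edgeR, with a median log2 fold change of 0.06. Neither did any of 16 genes of glutamate and cystine exchange (median 0.07), which include Slc7a11, the transporter that gives up glutamate for cystine. The same held for 14 genes of synapse-forming and matrix factors (median 0.02) and 15 genes of astrocyte energy supply, such as lactate carriers (median 0.03). Over all genes tested, 1.74% had such a p and the median was 0.0047. The mean log2 CPM score was lowest in LC rat 2 for the further astrocyte, exchange and energy supply lists (-0.24, -0.16 and -0.14). For synapse-forming and matrix factors its score was 0.07. These medians were not taken without LC rat 2.

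Of 24 genes of reactive astrocytes in the tables, 19 were tested and 2 had an unadjusted p under 0.05, 1 in each direction. The share of all genes tested was 1.74% (0.722% higher and 1.02% lower in HC rats). The median log2 fold change of the 19 was -0.01. The 2 genes are named because of that p, and their permutation p comes from the same rats, so it is no second support. Hspb1, a small heat shock protein, had 9.36, 8.73, 7.72, 6.33 and 8.36 CPM in HC rats 9, 10, 11, 15 and 16, against 4.04, 6.44, 7.31, 6.80 and 5.92 CPM in LC rats 2, 4, 12, 13 and 14. All HC rats but HC rat 15 lay above all LC rats. Between HC and LC rats the log2 fold change of Hspb1 was 0.40 (SE 0.17, unadjusted p = 0.0345, adjusted p = 0.885, exact permutation p = 0.0397, two-sided).

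Ggta1, a glycosyltransferase gene, had 3.53, 2.72, 2.98, 3.38 and 4.01 CPM in HC rats 9, 10, 11, 15 and 16, against 4.62, 4.40, 3.94, 3.78 and 4.51 CPM in LC rats 2, 4, 12, 13 and 14. HC rat 16 was the only HC rat within the LC range. The log2 fold change of Ggta1 was -0.35 (SE 0.15, unadjusted p = 0.0322, adjusted p = 0.885, exact permutation p = 0.0238, two-sided). Neither gene passed the adjusted threshold. Hspb1 missed the unadjusted one without HC rat 9, 10 or 16, without LC rat 14, or without both LC rats 2 and 4 (edgeR p between 0.0601 and 0.0847). Ggta1 missed it without HC rat 10, 11 or 15, without LC rat 4 or 14, or without both LC rats 2 and 4 (edgeR p between 0.0529 and 0.0921). With gene reads the unadjusted edgeR p of Ggta1 was 0.0545, and with library size alone in place of TMM it was 0.118. On log2 TPM with a pseudocount of 1 and of 0.1, the log2 fold change of Ggta1 was -0.10 and -0.14, with an unadjusted limma p of 0.414 and 0.445. The reactive genes Lcn2, Serpina3n, Aspg, Tgm1 and Ptx3 had at most 24 reads in a rat and were not tested.

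Markers of other cells in the tissue, read against the 1.74% of all genes, gave 0 genes at an unadjusted p under 0.05 among 12 neuronal, 6 oligodendrocyte precursor, 9 microglial, 9 endothelial and mural and 8 meningeal fibroblast genes tested. Among 12 oligodendrocyte markers it was 1, Ermn, a cytoskeletal protein of myelinating cells, at -0.35. Among 3 ependymal and choroid plexus markers it was 1, Ccdc153 at -0.86, and among 9 striatal markers it was 2, Adora2a at -1.33 and Penk at -0.71. Ermn passed in 17 of 24 alternatives, Ccdc153 in 10 of 23, Adora2a in 12 of 23 and Penk in 16 of 24. On log2 TPM with a pseudocount of 1, Ermn was at -0.11 with an unadjusted limma p of 0.460. Ccdc153 was at -0.37 with gene reads and at -0.72 without LC rat 2, with unadjusted edgeR p of 0.232 and 0.102. Without LC rat 4, Adora2a was at -0.23 and Penk at -0.40, with unadjusted p of 0.209 and 0.0819.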

How the data were processed

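Total RNA from the mPFC of 10 rats was sequenced as single-end reads. Per the paper's methods, the authors mapped the reads to the rat genome Rnor_6.0 (a build also named in the submitters' processing notes) and counted reads per gene in the CLC Genomics Workbench. The authors deposited, per gene and rat, raw counts of exon reads, intron reads, gene reads and reads unique to the gene, and TPM, which divides exon reads by exon length and scales them to the same sum in each library. The sources used here give no strand setting for the counting, and values of overlapping antisense genes are therefore uncertain. Their deposited comparison table (fold changes, p-values) was not used.

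Exon read counts were filtered with filterByExpr, scaled by TMM and tested in edgeR 4.0.16 (R 4.3.3) by quasi-likelihood, and p-values were adjusted over 14135 genes by the Benjamini-Hochberg method. Intervals are 95%. Single genes were also tested by an exact two-sided permutation test of the difference in mean log2 CPM (prior count 2), with all 252 regroupings, whose smallest possible p is 0.0079. Each fit was tested on simulated counts first. Alternatives were other scalings and filters, DESeq2 1.42.0, limma 3.58.1 (voom, and trend on log2 TPM), other count columns, the removal of mitochondrial genes and each rat left out.

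Rats were grouped by the phenotype in the sample labels. Some rats of each phenotype had a second cue test before tissue was taken. The names of the deposited files mark these rats, but groups were taken only from the sample labels, which do not, so the second test was not used and its part was not tested. No pair of libraries agreed within sampling noise (chi-square per gene of at least 4.99). The genes, lists and naming rule were chosen with earlier results of these data known, so they are no independent support. Values per rat are given for the gene of highest TPM in each role, the 5 of smallest p, the 3 of largest log2 fold change in each direction and Gfap, and Gjb6 was added after its values were seen. Of the listed symbols, Dio2, Gpc5, Prodh, Iigp1, Itgam, Pecam1 and Foxj1 had no match in the tables.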

Additional observations from a re-analysis of the deposited data

Results flagged for a closer look

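Within each phenotype, 84 sets of 5 rats (genes, and sums of CPM over lists) were searched for a rat far from the other 4, and 5 were found. Chance alone finds about 1 in 20 such sets. S100b was at 1197.23 CPM in LC rat 2, against 803.6 to 895.1 CPM in the other LC rats. The neuronal markers of the same rat summed to 14405.8 CPM, against 9632 to 10746 CPM, but went both ways: Snap25 (5901 CPM) and Syt1 (2998 CPM) were the highest of the 10 rats, while Slc17a7, Eno2, Tubb3 and Camk2a were the lowest. Without Snap25 the sum was 8505 CPM in LC rat 2, against 7889 to 8606 CPM in the other LC rats. The 30 astrocyte genes summed to 10186.6 CPM in LC rat 13, against 9032.7 to 9154.1 CPM in the other LC rats. Genes of astrocyte energy supply summed to 1563.68 CPM in HC rat 15, against 1505.6 to 1513.4 CPM in the other HC rats. Meningeal fibroblast markers summed to 694.933 CPM in LC rat 4, against 133.7 to 277.9 CPM in the other LC rats.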

How the results depend on the processing

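No alternative put any of the 30 astrocyte genes past the criterion of the study or past an adjusted p of 0.05, and 24 alternatives were run (23 for Slc39a12, which a minimum mean of 50 reads leaves out). The count at an unadjusted p under 0.05 was 0 to 2 when 1 rat was left out, and 0 under all other alternatives. The sign of the log2 fold change differed from that reported under at least 1 alternative for 26 of the 30, and for Fabp7, Slc1a2, Slc4a4 and, over its 23, Slc39a12 it did not. The median log2 fold change of the 30 was 0.25 and 0.26 with limma on log2 TPM with a pseudocount of 1 and 0.1. All genes tested were then shifted too, to medians of 0.20 and 0.23, and HC was higher for 28 of the 30. The mean log2 score of HC minus LC was 0.23 on TPM. Over all genes, the count at an unadjusted p under 0.05 was 451 with every gene with a read kept and 154 to 634 with 1 rat left out. The count at the criterion was 288 with every gene kept, 45 under a minimum mean of 50 reads, 46 with limma-voom, 41 with limma on log2 TPM with a pseudocount of 1, and 68 to 183 with 1 rat left out. The cause of these shifts was not tested.

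No paired analysis was made, because the HC and LC groups are different rats and the sample labels give no pairs. Depth limits Slc39a12 most, at 5 to 26 reads per rat, and the other 29 genes had at least 98.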
